A study of Mus musculus with 12 samples.

Results

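The genes described here encode the T cell receptor complex and mark T cell lineages. They are 10 mouse genes chosen by symbol, out of 29956 genes in the count table: the CD3 chains Cd3d, Cd3e and Cd3g, the zeta chain Cd247, the coreceptors Cd4 and Cd8a, the lineage transcription factors Foxp3, Gata3 and Tbx21, and Il2ra, the alpha chain of the interleukin-2 receptor. All 10 were present and all 10 passed the filter on low counts, which left 18218 genes tested. At day 3 after wounding, Cd4 was about 2-fold higher in wounds given Alcaligenes faecalis than in wounds given Staphylococcus aureus (1.96-fold), Il2ra was highest with S. aureus, and no CD3 chain passed the test in any comparison.

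RNA was sequenced from whole skin of B6.BKS(D)-Leprdb/db mice, a strain without a working leptin receptor that becomes obese and diabetic, after full-thickness punch wounds in the back. All 3 groups carry this genotype, so every comparison is between diabetic wounds, and the age and sex of the mice are not given in the sources used here. Each group had 4 libraries, 1 per mouse: wounds given A. faecalis in PBS, wounds given S. aureus in PBS, and vehicle wounds given PBS with glycerol. Libraries held 38.4 to 71.3 M (mega) estimated counts, and single genes of the set held from 21.7 (Tbx21) to 1292 (Il2ra) of them in a library. The tissue is a mixture of cell types, and in bulk RNA fewer cells of a type and less RNA per cell cannot be told apart. Vehicle replicate 3 stood apart in other cells' genes: its 10 adipocyte markers summed to 8726 CPM (counts per M, scaled by library size), against 1494 to 3589 in the other 11 libraries, and its 12 neutrophil markers to 759 CPM, the lowest of the 12 libraries.

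A T cell recognises antigen through paired receptor chains that have almost no signalling part of their own. The CD3 gamma, delta and epsilon chains and the zeta chain carry the signalling motifs that the kinase LCK phosphorylates and that recruit ZAP70. CD4 and CD8 bind the presenting molecules and bring LCK to the receptor. FOXP3 marks regulatory T cells, GATA3 marks type 2 helper cells and group 2 innate lymphoid cells, and T-bet, made from Tbx21, marks type 1 helper cells and natural killer cells. The high-affinity interleukin-2 receptor is built with the Il2ra chain, which regulatory T cells carry constantly and other T cells gain on activation. Mouse epidermis also holds gamma-delta T cells, which use CD3 chains, though not necessarily each of them, without CD4.

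The 3 CD3 genes lie together on chromosome 9. By the RefSeq transcript starts (build GRCm38.p6, the older mouse build, used here for sequence only), Cd3g and Cd3d are read away from each other from starts 1355 bases apart, and the Cd3d start lies 27825 bases from that of Cd3e. The 150 bases before the start of the receptor genes and of Il2ra, the gene of the set that differed most between groups, are shown 5′ to 3′ on each gene's own strand. Capitals mark ACTTCC, a core read by ETS-family factors, which was searched on both strands (as GGAAGT on the other).
Cd3d (chr9:44981636-44981785, plus strand): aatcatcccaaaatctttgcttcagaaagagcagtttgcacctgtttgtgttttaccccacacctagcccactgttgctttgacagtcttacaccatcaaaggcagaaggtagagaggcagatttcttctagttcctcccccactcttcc
Cd3g (chr9:44980432-44980581, minus strand): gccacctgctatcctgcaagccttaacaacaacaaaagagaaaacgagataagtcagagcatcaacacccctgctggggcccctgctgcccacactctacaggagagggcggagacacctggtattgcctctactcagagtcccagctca
Cd3e (chr9:45009612-45009761, minus strand): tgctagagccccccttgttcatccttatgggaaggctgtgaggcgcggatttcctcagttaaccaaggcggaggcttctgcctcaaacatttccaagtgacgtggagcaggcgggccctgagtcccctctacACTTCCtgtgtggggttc
Cd247 (chr1:165788531-165788680, plus strand): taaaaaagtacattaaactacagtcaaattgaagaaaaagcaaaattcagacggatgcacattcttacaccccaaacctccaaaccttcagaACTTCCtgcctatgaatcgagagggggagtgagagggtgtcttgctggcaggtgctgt
Il2ra (chr2:11642642-11642791, plus strand): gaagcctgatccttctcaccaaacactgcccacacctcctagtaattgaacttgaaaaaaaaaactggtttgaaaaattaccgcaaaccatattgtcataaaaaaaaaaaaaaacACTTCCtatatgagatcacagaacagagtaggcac

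RefSeq promoters were matched for 9 of the 10 genes, with 2 starts for Foxp3, and Cd4 is named only. The ETS core stood once each in the windows of Cd3e, Cd247 and Il2ra and in none of the windows of Cd3d, Cd3g, Cd8a, Foxp3, Gata3 and Tbx21. Of all 32851 RefSeq promoter windows of the same length, 13.6% held it. The GATA core AGATAA stood in the Cd3g window and in that of the second Foxp3 start (5.65% of all windows), and the TCF core CTTTGA, counted on both strands, stood 2 times in that of Cd3d (7.93% of all windows). These matches describe the letters only.

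Levels differed by more than an order of magnitude within the set. Set per kilobase of each gene's longest coding transcript, so that genes can be compared, vehicle wounds held 5.74 ± 0.985 CPM per kb of Gata3 (SD, n = 4), 3.03 ± 0.335 of Il2ra and 2.32 ± 0.172 of Cd4. Below these stood Cd247 (1.36 ± 0.330 CPM per kb), Cd3d (1.30 ± 0.243), Cd3e (1.07 ± 0.216), Cd3g (0.895 ± 0.127) and Cd8a (0.859 ± 0.200). Foxp3 (0.476 ± 0.0667 CPM per kb) and Tbx21 (0.381 ± 0.205) were lowest. The 4 vehicle values of Gata3, Il2ra and Cd4 did not overlap with those of the next gene in this order, and neither did those of Cd8a and Foxp3. From Cd247 to Cd8a, and between Foxp3 and Tbx21, neighbours in the order overlapped.

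**Figure D1:**
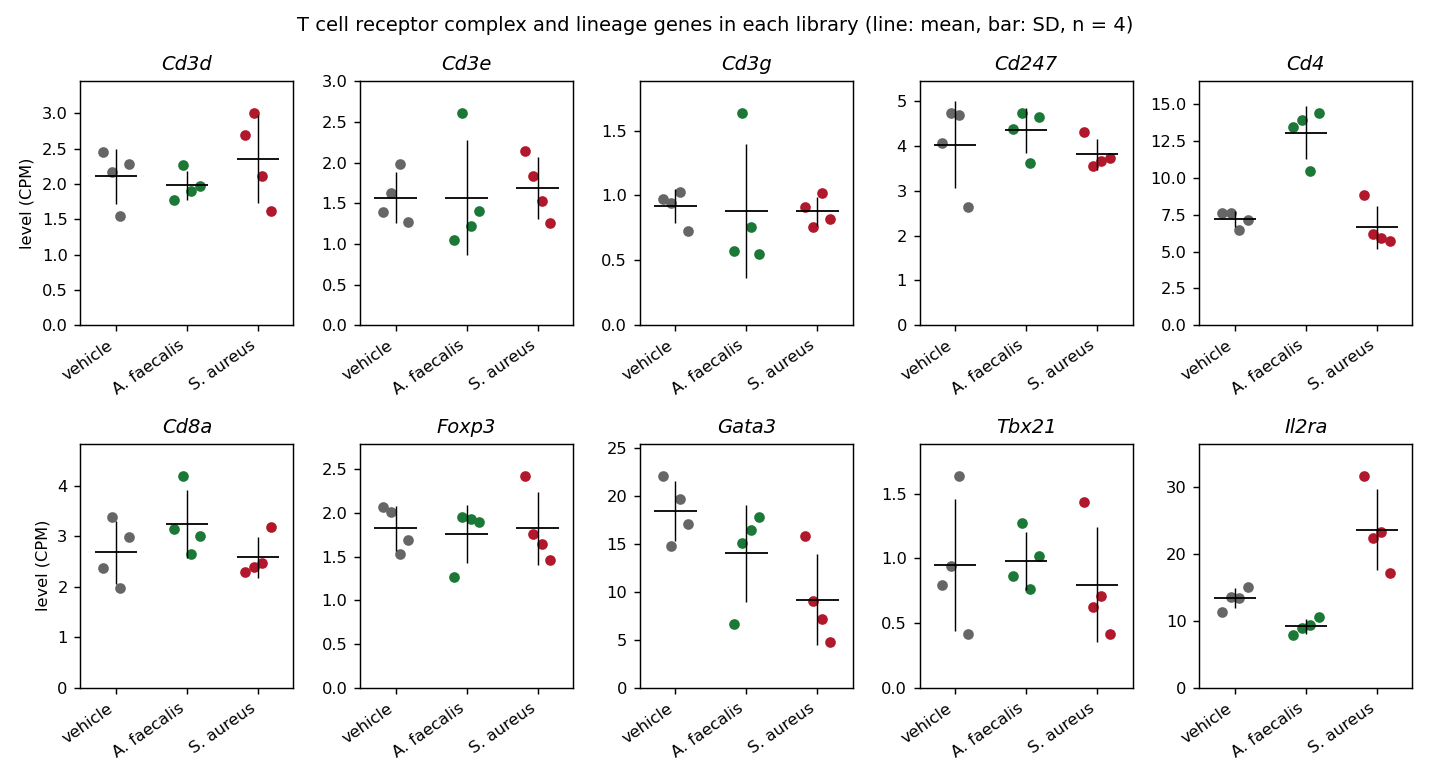
Level of each of the 10 genes in CPM in every library, 1 panel per gene and 1 point per library, grouped as vehicle, A. faecalis and S. aureus with a line at the mean of 4 and a vertical bar for the SD. Cd4 stands between 10.5 and 14.4 CPM with A. faecalis, above all 8 other libraries, and Il2ra between 17.1 and 31.7 CPM with S. aureus, while the CD3 panels overlap across the groups.

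Counted over the set, A. faecalis against vehicle called 0 of the 10 genes (edgeR), where 0.011% of all genes tested were called. At an unadjusted p under 0.05 it held 2, Cd4 and Il2ra, against 7.68% of all genes. DESeq2 called 1 (Cd4), where it called 120 over all genes, and limma-voom called 0. S. aureus against vehicle called 1 of 10, Il2ra, which was higher, against 6.84% of all genes (3.87% higher and 2.97% lower). At an unadjusted p under 0.05 it held 2 of 10, Il2ra and Gata3, against 27% of all genes. A. faecalis against S. aureus called 2 of 10, against 12.7% of all genes, with Cd4 higher (5.06%) and Il2ra lower (7.62%), and these were also the 2 with an unadjusted p under 0.05 (28.2% of all genes). Groups did not overlap in 2, 1 and 2 of the 10 genes in these comparisons, against 4.05%, 15.1% and 23.3% of all genes. The median log2 difference of the 10 genes was −0.02, −0.06 and 0.11, and that of all genes tested −0.03, −0.04 and 0.02. The comparisons share their groups and are not independent of each other.

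The CD3 chains and the zeta chain overlapped across the 3 groups. Cd3d, which encodes the delta chain, was at 2.45, 2.17, 1.55 and 2.28 CPM in vehicle wounds, at 1.77, 2.27, 1.90 and 1.97 with A. faecalis, and at 2.69, 3.01, 2.11 and 1.61 with S. aureus. Cd3e, the epsilon chain on which assembly of the complex depends, was at 1.39, 1.63, 1.99 and 1.27 CPM, at 1.05, 2.61, 1.22 and 1.40, and at 2.14, 1.83, 1.52 and 1.25 in the same order of groups. Both genes overlapped across all 3 groups, and the highest Cd3e value of the study was A. faecalis replicate 2. Cd3g, the gamma chain, was at 0.972, 0.939, 1.03 and 0.729 CPM with vehicle, at 0.575, 1.64, 0.760 and 0.546 with A. faecalis, and at 0.914, 0.760, 1.02 and 0.817 with S. aureus. A. faecalis replicate 2 was again the highest library, and the other 3 of that group were at 0.760 CPM or below. Cd247 ran from 2.64 to 4.73 CPM in vehicle wounds (4.06, 4.73, 4.69 and 2.64), from 3.61 to 4.74 with A. faecalis (4.38, 4.74, 3.61 and 4.65) and from 3.54 to 4.31 with S. aureus (4.31, 3.54, 3.66 and 3.72). Its A. faecalis and S. aureus values lay within the range of the vehicle wounds, apart from A. faecalis replicate 2, which was higher by less than 0.1 CPM.

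None of these 4 genes passed the test in any comparison (edgeR quasi-likelihood test, Benjamini-Hochberg adjusted p over 18218 genes, from 0.476 to 0.998). The log2 fold changes of Cd3e were 0.00 (SE 0.290) for A. faecalis against vehicle, 0.10 (SE 0.292) for S. aureus against vehicle and −0.10 (SE 0.292) for A. faecalis against S. aureus. The 95% interval of the first ran from 0.647-fold to 1.55-fold. For Cd247, the best counted of the 4, the corresponding interval was narrower, from 0.820-fold to 1.41-fold. Cd3d had log2 fold changes of −0.09, 0.16 and −0.25 in the same order of comparisons, and Cd3g of −0.05, −0.07 and 0.02. The A. faecalis values of Cd3e and Cd3g depend on replicate 2: without it the log2 differences were −0.36 and −0.53 against vehicle and −0.46 and −0.47 against S. aureus, and none passed (adjusted p from 0.209 to 0.915).

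Cd4 was the coreceptor that differed. It was at 7.60, 7.62, 6.48 and 7.14 CPM in vehicle wounds, at 13.5, 14.0, 10.5 and 14.4 with A. faecalis, and at 8.83, 6.17, 5.92 and 5.72 with S. aureus. All 4 A. faecalis libraries lay above all 8 others, and the vehicle and S. aureus values overlapped. Cd4 was higher with A. faecalis than with S. aureus by 0.97 on the log2 scale (SE 0.154), or 1.96-fold (95% interval 1.56 to 2.48; adjusted p = 0.00283, edgeR), and the call held in each of the 12 fits that left out 1 library (adjusted p at most 0.0114). Against vehicle, the log2 difference was 0.86 (SE 0.153), or 1.81-fold, with an unadjusted p of 0.000115 and an adjusted p of 0.160, so it did not pass; DESeq2 gave an adjusted p of 5.22e-05 for the same counts, and limma-voom 0.191. Between S. aureus and vehicle the log2 difference was −0.12 (adjusted p = 0.668).

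Cd8a, which encodes the CD8 alpha chain of cytotoxic T cells and of a class of dendritic cells, was at 2.38, 3.39, 1.99 and 2.99 CPM with vehicle, at 3.14, 4.21, 2.65 and 3.01 with A. faecalis, and at 2.30, 2.40, 2.46 and 3.19 with S. aureus. The groups overlapped. A. faecalis replicate 2, the highest library in Cd3e and Cd3g, was also the highest in Cd8a. Its log2 fold changes were 0.28, −0.05 and 0.33 (A. faecalis against vehicle, S. aureus against vehicle, A. faecalis against S. aureus), with adjusted p from 0.323 to 0.901. Its partner chain Cd8b1, which is confined more closely to T cells, was at 0.126 to 0.345 CPM with vehicle, 0.301 to 0.962 with A. faecalis and 0.323 to 0.656 with S. aureus. It passed in none of the comparisons with edgeR, and with DESeq2 it was higher with S. aureus than with vehicle (log2 1.28, adjusted p = 0.0369).

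**Figure D2:**
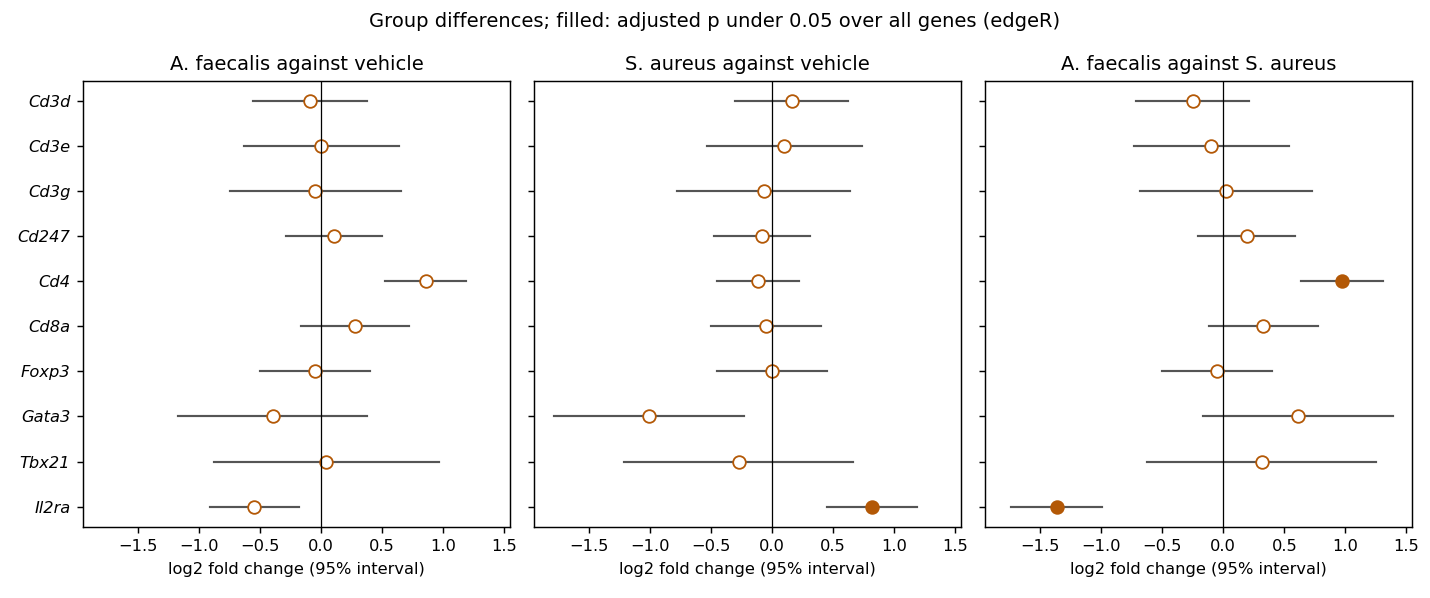
Log2 fold change of each of the 10 genes in the 3 comparisons, with bars for the 95% interval of the edgeR fit and filled points where the adjusted p was under 0.05. The filled points are Cd4 (0.97) and Il2ra (−1.36) for A. faecalis against S. aureus and Il2ra (0.82) for S. aureus against vehicle.

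Because some macrophages and dendritic cells can also express it, Cd4 was set against the CD3 genes in each library, where library scaling cancels. The count of Cd4 was 3.26 to 5.60 times that of Cd3e in vehicle wounds, 5.33 to 12.8 times with A. faecalis and 3.36 to 4.54 times with S. aureus. The A. faecalis values lay above all S. aureus values and overlapped those of the vehicle wounds. The log2 ratio was higher by 1.16 with A. faecalis than with S. aureus (exact permutation test, two-sided p = 0.0286, adjusted over 3 comparisons 0.0857) and by 0.92 than with vehicle (p = 0.0857, adjusted 0.129). With 4 against 4 libraries, 0.0286 is the smallest p this test can give. Against the sum of Cd3d, Cd3e and Cd3g, which rests on more counts, Cd4 was 1.42 to 1.67 times as high with vehicle, 2.14 to 3.97 times with A. faecalis and 1.10 to 1.55 times with S. aureus. In that form the A. faecalis libraries lay above all others, and the adjusted p was 0.0429 in both comparisons (log2 difference 0.95 against vehicle and 1.17 against S. aureus, exact permutation test).

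**Figure D3:**
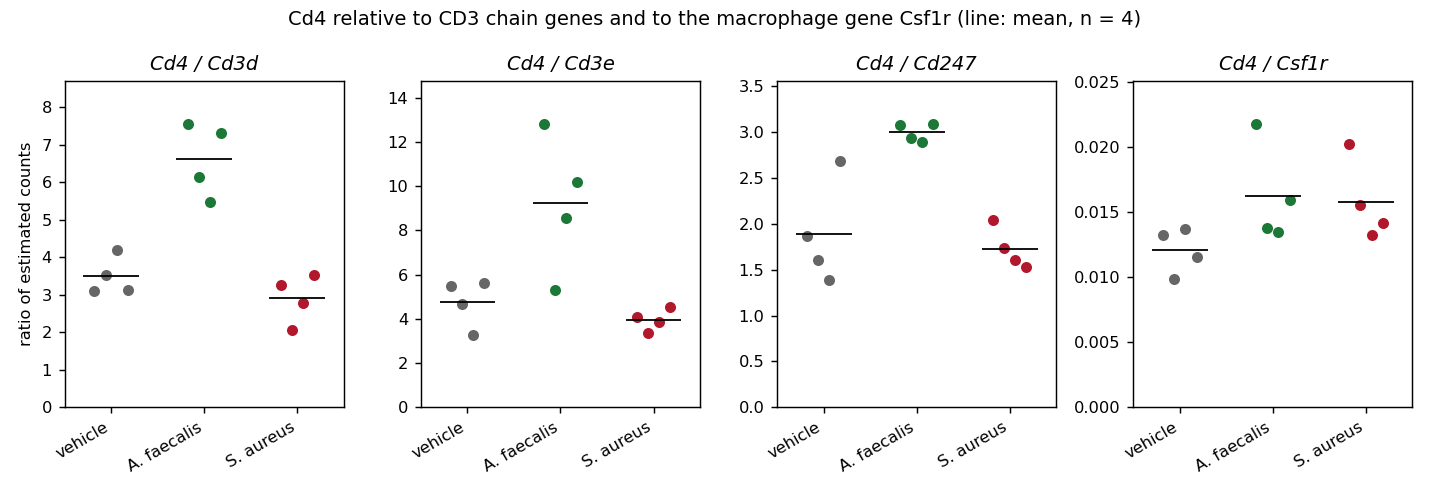
Ratio of the estimated count of Cd4 to that of Cd3d, Cd3e, Cd247 and Csf1r, 1 panel each, with 1 point per library, a line at the mean of each group of 4 and linear axes from 0. The A. faecalis libraries stand above the 8 others against Cd3d (5.49 to 7.57, with at most 4.20 for vehicle and 3.51 for S. aureus) and Cd247 (2.89 to 3.10, with at most 2.69 and 2.04); against Csf1r the 3 groups overlap.

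Cd4 was also set against macrophage genes, of which Csf1r encodes the receptor that macrophages need for survival. The ratio of Cd4 to Csf1r was 0.00988 to 0.0137 with vehicle, 0.0135 to 0.0218 with A. faecalis and 0.0132 to 0.0202 with S. aureus. The groups overlapped, and the log2 differences were 0.41 for A. faecalis against vehicle (adjusted p = 0.129, exact permutation test), 0.38 for S. aureus against vehicle (adjusted p = 0.129) and 0.03 for A. faecalis against S. aureus, which did not pass either. The macrophage genes did not give the same picture. Against Cd68, Cd4 stood at 0.0388 to 0.0682 with A. faecalis, above all vehicle libraries (0.0257 to 0.0342) and overlapping S. aureus (0.0230 to 0.0400). Against Emr1 it stood at 0.0335 to 0.0651 with A. faecalis, 0.0208 to 0.0343 with vehicle and 0.0428 to 0.0658 with S. aureus, with the last group above all vehicle libraries. Csf1r itself was at 618, 1013, 775 and 908 CPM with A. faecalis, against 397 to 447 with S. aureus and 475 to 773 with vehicle, and was higher with A. faecalis than with S. aureus (log2 0.97, SE 0.168, adjusted p = 0.00415, edgeR). Emr1, the symbol in the table for the macrophage marker Adgre1 (F4/80), was higher by 1.43 (SE 0.236, adjusted p = 0.00359), and Mertk, a receptor for dying cells, by 0.75 (SE 0.103, adjusted p = 0.00162). All 3 calls held in each fit that left out 1 library.

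Of the 19 monocyte and macrophage markers tested, 9 were higher with A. faecalis than with S. aureus and 0 were lower, where 5.06% of all genes tested were called higher and 7.62% lower. The median log2 difference was 0.41 against 0.02 over all genes tested. DESeq2 called 11 higher and 1 lower, where it called 1409 higher and 2065 lower over all genes. EdgeR with the replicate number as a block called 6 higher and 0 lower, with 798 and 1322 over all genes. The list summed to 7783 to 11142 CPM with A. faecalis, 6047 to 7482 with S. aureus and 5506 to 9745 with vehicle, and its defining markers Csf1r, Emr1, Cd68 and C1qa were above 0 in every library. The members differed among themselves. Cd68, a lysosomal protein of macrophages, was at 198 to 311 CPM with A. faecalis and 186 to 258 with S. aureus and did not pass (adjusted p = 0.254). Mrc1, the mannose receptor, missed the threshold in edgeR (log2 0.75, adjusted p = 0.0582) and passed in DESeq2 (0.0174) and limma-voom (0.0499). The part of macrophage RNA in the Cd4 difference was not tested. Since the A. faecalis libraries formed a cluster of their own in Cd4, no test of a correlation over all 12 libraries is given. Over the other 8, a choice made after the Cd4 values were seen, log2 Cd4 had a Pearson r of 0.47 with Csf1r (Spearman rho 0.52), 0.56 with C1qa (rho 0.45), 0.46 with Cd3d (rho 0.45) and 0.37 with Cd3e (rho 0.48). Among the 8 genes set against Cd4 in this way, none passed an exact permutation test (adjusted p from 0.507 for r and from 0.357 for rho). Without the libraries farthest from the median of Cd4, S. aureus replicates 1 and 4, r was 0.88 with Csf1r, −0.46 with Cd3e and 0.03 with Cd3d, so these values depend on those libraries. After the group means were subtracted, r over all 12 libraries was 0.53 with C1qa and 0.33 with Csf1r. It was 0.51 with Cd3d and 0.39 with Cd3e, and these values are given with no test.

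The lineage factor of regulatory T cells, Foxp3, was at nearly the same mean in the 3 groups: 1.83 ± 0.256 CPM with vehicle, 1.76 ± 0.331 with A. faecalis and 1.83 ± 0.421 with S. aureus (SD, n = 4 each). By library it was at 2.06, 2.01, 1.53 and 1.69 with vehicle, at 1.27, 1.95, 1.93 and 1.90 with A. faecalis, and at 2.43, 1.76, 1.65 and 1.46 with S. aureus. The groups overlapped, and A. faecalis replicate 1 was the lowest library. Log2 fold changes were −0.05, 0.00 and −0.05 (adjusted p from 0.903 to 0.997, edgeR), and the 95% interval for S. aureus against vehicle ran from 0.732-fold to 1.36-fold. Ikzf2, which encodes Helios, another factor of regulatory T cells, passed in none of the comparisons (log2 −0.21, −0.14 and −0.07).

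Tbx21 was the lowest of the set per kilobase. It was at 0.798, 0.939, 1.64 and 0.419 CPM with vehicle, at 0.862, 1.28, 0.760 and 1.02 with A. faecalis, and at 1.44, 0.622, 0.711 and 0.418 with S. aureus. Its values spread nearly 4-fold within the vehicle group (0.419 to 1.64), the groups overlapped, and no comparison passed (log2 0.04, −0.27 and 0.31; adjusted p from 0.675 to 0.990). The related factor Eomes, of natural killer and cytotoxic T cells, was at 0.828 to 1.36 CPM with A. faecalis and 0.305 to 0.653 with S. aureus, and was higher with A. faecalis (log2 1.22, SE 0.245, adjusted p = 0.00854).

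Gata3 was at 22.2, 14.8, 19.7 and 17.1 CPM with vehicle, at 6.63, 15.1, 16.5 and 17.9 with A. faecalis, and at 15.8, 9.02, 7.19 and 4.79 with S. aureus. In the S. aureus group 3 of 4 libraries stood below all vehicle libraries and replicate 1 stood within their range, as did 3 of the 4 A. faecalis libraries. The log2 difference of S. aureus against vehicle was −1.01 (SE 0.358), or 0.497-fold, with an adjusted p of 0.1, and did not pass. It passed in DESeq2 (adjusted p = 0.0371) and in edgeR without S. aureus replicate 1 (adjusted p = 0.0327). The other log2 differences of Gata3 were −0.40 for A. faecalis against vehicle (adjusted p = 0.782) and 0.61 for A. faecalis against S. aureus (adjusted p = 0.291).

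Epidermis and hair follicle also express Gata3. Krt14, the keratin of the basal layer, was at 272 to 1439 CPM over the 12 libraries. Of 9 epidermal and follicle markers tested, 1 was lower with S. aureus than with vehicle and 0 were higher. Of all genes tested, 2.97% were called lower and 3.87% higher. The lower marker was Krt15, a keratin of basal and follicle bulge cells, which was at 0.533 to 2.14 CPM with S. aureus and 12.9 to 51.7 with vehicle (log2 −4.23, adjusted p = 0.00791). The list summed to 1164 to 1851 CPM with vehicle, 564 to 1125 with A. faecalis and 794 to 2384 with S. aureus, and the 3 follicle genes below the filter, Krt25, Krt27 and Krt71, were at or near 0. Of 11 group 2 innate lymphoid markers tested, 1 was higher with S. aureus than with vehicle (Il1rl1, a call lost without S. aureus replicates 3 or 4) and 0 were lower, against the same shares of all genes. Their summed levels were 372 to 1175 CPM with vehicle, 480 to 683 with A. faecalis and 695 to 1392 with S. aureus. The part of these cells in the Gata3 values was not tested.

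Il2ra differed most between the groups. It was at 11.4, 13.6, 13.5 and 14.97 CPM with vehicle, at 7.83, 8.94, 9.33 and 10.5 with A. faecalis, and at 31.7, 22.3, 23.2 and 17.1 with S. aureus. The 3 groups did not overlap: every A. faecalis library lay below every vehicle library, and every S. aureus library above. With S. aureus it rose over vehicle by 0.82 on the log2 scale (SE 0.168), or 1.76-fold (95% interval 1.37 to 2.27; adjusted p = 0.0203, edgeR). That call was lost without S. aureus replicate 3 (adjusted p = 0.0565) and in a fit of those groups alone (adjusted p = 0.0600). With A. faecalis it was lower than with S. aureus (log2 −1.36, SE 0.170), or 0.389-fold (adjusted p = 0.00104), and this call held in each of the 12 fits that left out 1 library (adjusted p at most 0.00532). Between A. faecalis and vehicle the log2 difference was −0.54 (SE 0.168), with an unadjusted p of 0.00711 and an adjusted p of 0.519, and did not pass.

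Foxp3 marks cells that carry Il2ra constantly, and Cd3e marks T cells as a whole, so Il2ra was also set against each. The count of Il2ra was 5.48 to 8.79 times that of Foxp3 with vehicle, 4.57 to 6.10 times with A. faecalis and 11.6 to 13.9 times with S. aureus. Against Cd3e it was 6.76 to 11.7 times, 3.42 to 7.64 times and 12.1 to 15.1 times in the same order. In both ratios, which were chosen after the values were seen and are given with no test, all S. aureus libraries lay above the 8 others. The other chains of the interleukin-2 receptor did not pass in any comparison with all 12 libraries: Il2rb, the beta chain, had log2 differences of 0.34, 0.39 and −0.05, and Il2rg, the chain shared with other cytokine receptors, of 0.62, 0.10 and 0.53 (A. faecalis against vehicle, S. aureus against vehicle, A. faecalis against S. aureus). The last difference of Il2rg passed without vehicle replicate 3 (adjusted p = 0.0221) and in a fit of those groups alone (0.0220).

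Of the receptors that activated and regulatory T cells can carry beside Il2ra, Ctla4, Pdcd1 and Tnfrsf18 were lower with A. faecalis than with S. aureus, and Cd28 and Il2rb did not pass (log2 0.19 and −0.05). Ctla4, an inhibitory receptor, was at 0.490 to 1.02 CPM with A. faecalis and 1.58 to 4.15 with S. aureus (log2 −1.95, SE 0.360, adjusted p = 0.00566). Pdcd1, which encodes PD-1, was at 0.0950 to 0.270 and 0.741 to 1.37 CPM (log2 −2.36, SE 0.411, adjusted p = 0.00433). Tnfrsf18, which encodes GITR, was at 3.8 to 4.97 and 5.61 to 7.26 CPM (log2 −0.58, SE 0.134, adjusted p = 0.0166). In these 3 genes the A. faecalis and S. aureus libraries did not overlap, and the 3 calls held without any 1 library. Of all genes tested, 23.3% did not overlap between these groups in either direction, and 7.62% were called lower. Against vehicle, Ctla4 (log2 1.32, adjusted p = 0.0445) and Tnfrsf18 (log2 0.50, adjusted p = 0.0445) passed with S. aureus, where 3.87% of all genes were called higher. The Ctla4 call was lost without any of vehicle replicates 1 and 3, A. faecalis replicates 2, 3 and 4 and S. aureus replicates 1, 2 and 3 (adjusted p up to 0.113). The Tnfrsf18 call was kept only without vehicle replicate 4, A. faecalis replicate 1 or A. faecalis replicate 3 (up to 0.106 otherwise).

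**Figure D4:**
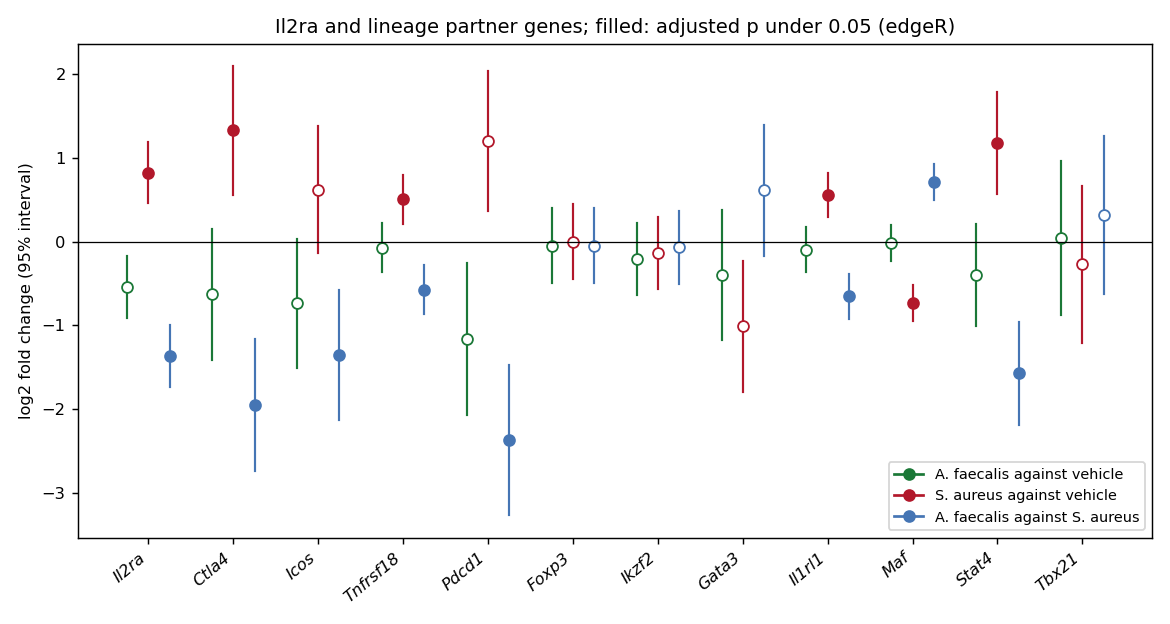
Log2 fold change of Il2ra and of 11 lineage partner genes in the 3 comparisons, each in its own colour, with bars for the 95% interval of the edgeR fit and filled points where the adjusted p was under 0.05. For A. faecalis against S. aureus, Il2ra (−1.36), Ctla4 (−1.95), Pdcd1 (−2.36) and Tnfrsf18 (−0.58) are filled below 0, as are Icos, Il1rl1 and Stat4. Maf (0.71) is filled above 0, while Foxp3 has no filled point.

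Il2ra is also carried by some dendritic cells and by group 2 innate lymphoid cells. Of 11 group 2 innate lymphoid markers tested, 0 were higher and 3 were lower with A. faecalis than with S. aureus, among them Il1rl1 and Icos. Of all genes, 5.06% were called higher and 7.62% lower. The median log2 difference of these markers was −0.30, with 4 above 0 and 7 below. Of 18 dendritic and Langerhans markers tested, 1 was higher and 3 were lower with A. faecalis than with S. aureus, against the same shares of all genes. Their median log2 difference was 0.06, with 11 above 0 and 7 below. The 3 lower were Ccr7, Cd83 and Fscn1, which mature dendritic cells carry, and Cd83 was at 0.794 to 1.26 CPM against 1.52 to 3.91 (log2 −1.36, adjusted p = 0.0133). The Fscn1 call was lost without A. faecalis replicates 2, 3 or 4 or S. aureus replicates 3 or 4. Cd207, of Langerhans cells, and Itgax, of dendritic cells, passed in none of the comparisons, apart from Itgax for A. faecalis against S. aureus without vehicle replicate 3 (adjusted p = 0.0157) and in a fit of those groups alone (0.0149). The list summed to 909 to 1306 CPM with A. faecalis, 731 to 1112 with S. aureus and 881 to 1257 with vehicle. Of 7 mast cell markers, Kit, the stem cell factor receptor, was the one called higher with S. aureus than with vehicle (log2 1.2, adjusted p = 0.00332), where 3.87% of all genes were called higher. For A. faecalis against S. aureus 0 of the 7 were higher and 1 was lower, where 7.62% of all genes were called lower. In limma-voom the lower one was Kit. The 12 neutrophil markers summed to 9802 to 15614 CPM with S. aureus, 1871 to 4387 with A. faecalis and 759 to 9124 with vehicle. Of them, 2 were higher with S. aureus than with vehicle (median log2 1.78), where 3.87% of all genes were called higher. A fit of those groups alone called 0 of the neutrophil markers, where it called 238 of all genes higher. DESeq2 called 7 of the markers, where it called 1561 of all genes higher. The comparison of A. faecalis with S. aureus had 7 lower (median log2 −2.06), where 7.62% of all genes were called lower. The part of these cells in the Il2ra difference was not tested.

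The genes around the receptor were read from lists that were drawn up with earlier results of these data known. Of 35 genes of receptor signalling and the T cell surface, 34 were tested. With A. faecalis against vehicle 0 were called by edgeR, DESeq2 or limma-voom (median log2 0.06). An unadjusted p under 0.05 was held by 2, against 7.68% of all genes. Lck, the kinase that phosphorylates the CD3 motifs, was at 2.15 to 3.95 CPM with vehicle and 3.96 to 5.41 with S. aureus, without overlap. It did not pass in edgeR (log2 0.69, adjusted p = 0.101) and passed in DESeq2 (adjusted p = 0.0386). Zap70, the kinase recruited to them, Lat, the adaptor below it, and the surface receptors Cd2, Cd5 and Cd28 passed in none of the comparisons with edgeR; Cd28 passed for S. aureus against vehicle without vehicle replicate 4 (adjusted p = 0.0164). With S. aureus against vehicle, Ctla4 and Thy1 were called higher and Nfatc2 lower (median log2 0.01), where 3.87% of all genes were called higher and 2.97% lower. With A. faecalis against S. aureus, 3 were higher, among them Themis and Nfatc2, and 3 lower (Ctla4, Icos and Pdcd1), with a median of −0.02; of all genes, 5.06% were called higher and 7.62% lower. Of these, Ctla4, Pdcd1 and Nfatc2 kept the call without any 1 library. Icos lost it without A. faecalis replicates 1 or 4 or S. aureus replicates 1, 2 or 3, and Themis without A. faecalis replicates 1 or 4 or S. aureus replicates 3 or 4. Against vehicle, Thy1 was called in 6 of the 12 fits that left out 1 library, lost without replicates 2, 3 or 4 of vehicle or S. aureus, and Nfatc2 in 2, those without vehicle replicate 4 or S. aureus replicate 1. Thy1 is carried by fibroblasts as well as T cells, and Nfatc2 is made in many cell types.

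The receptor's own constant regions gave no called gene. Trbc1 and Trbc2, the beta constant regions, had log2 differences between −0.27 and 0.13 in the 3 comparisons, and of 11 receptor region genes 6 were tested and 0 called in any comparison by edgeR, DESeq2 or limma-voom. At an unadjusted p under 0.05 there was 1, in A. faecalis against S. aureus (28.2% of all genes). There were 0 in A. faecalis against vehicle (7.68%) and in S. aureus against vehicle (27%). Trac, the alpha constant region, held only 6.55, 25.9 and 2.26 estimated counts summed over the 4 libraries of the vehicle, A. faecalis and S. aureus groups and was below the filter. Tcrg-V5, the variable region of the gamma-delta T cells of mouse epidermis, held 2.23, 0 and 1 summed counts, too few to compare. Of 12 gamma-delta genes tested, 2 were higher and 2 lower with A. faecalis than with S. aureus, where 5.06% of all genes were called higher and 7.62% lower. Among these, Crtam, an adhesion receptor of cytotoxic lymphocytes, was higher by 2.06 on the log2 scale (adjusted p = 0.0072). Blk, a Src-family kinase shared with B cells, had a log2 difference of −1.87 (adjusted p = 0.00522).

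Among 46 helper and regulatory lineage genes, which include Gata3, Tbx21, Foxp3 and Il2ra, 42 were tested. With A. faecalis against vehicle 0 were called by edgeR, DESeq2 or limma-voom. An unadjusted p under 0.05 was held by 6, against 7.68% of all genes. With S. aureus against vehicle 7 were higher and 2 lower (median log2 0.07). In a fit of those groups alone 1 was higher and 1 lower, with 238 and 112 over all genes. With A. faecalis against S. aureus 2 were higher and 11 lower (median −0.20). Of all genes tested, 3.87% were called higher and 2.97% lower with S. aureus against vehicle, and 5.06% and 7.62% with A. faecalis against S. aureus. Maf, a factor of interleukin-10-producing T cells that macrophages also express, was at 180 to 219 CPM with S. aureus, 279 to 344 with A. faecalis and 296 to 339 with vehicle. It was lower with S. aureus than with vehicle (log2 −0.73, adjusted p = 0.00648) and higher with A. faecalis than with S. aureus (log2 0.71, adjusted p = 0.00169), and both calls held without any 1 library.

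Stat4, which carries interleukin-12 signals toward the T-bet program, was at 8.52 to 11.4 CPM with S. aureus, 2.06 to 4.77 with A. faecalis and 2.92 to 6.11 with vehicle. It was lower with A. faecalis than with S. aureus (log2 −1.57, adjusted p = 0.00512) in every fit that left out 1 library. Il1rl1, the interleukin-33 receptor of Gata3-expressing lymphocytes and mast cells, was at 87.4 to 111 CPM with S. aureus and 50.3 to 69.2 with A. faecalis (log2 −0.65, adjusted p = 0.0061). Of the cytokines, Il17a held 251 estimated counts summed over the S. aureus libraries, 25.7 over the vehicle libraries and 1.99 over the A. faecalis libraries, and Ifng held 88.5, 15.8 and 19.1. Both were called higher with S. aureus than with vehicle. The Il17a call was lost without S. aureus replicate 3 (adjusted p = 0.0633), and the Ifng call without vehicle replicates 1 or 4, or replicates 2, 3 or 4 of either bacterial group. Il2, the ligand of the Il2ra receptor, held 16.5, 23.7 and 23.6 summed counts in vehicle, A. faecalis and S. aureus wounds and was below the filter.

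Among the 22 genes of cytotoxic T and natural killer cells, 21 were tested. With A. faecalis against S. aureus 3 were called higher and 0 lower, Eomes, Ncr1 and Cst7, where 5.06% of all genes were called higher, with a median log2 difference of 0.51. EdgeR called 0 against vehicle in either bacterial group. At an unadjusted p under 0.05 there were 6 for A. faecalis and 5 for S. aureus, against 7.68% and 27% of all genes. DESeq2 called 0 and 2 of the 21 genes, where it called 120 and 2876 over all genes, and limma-voom called 0 and 0. Ncr1, the natural killer receptor NKp46, was at 1.91 to 3.83 CPM with A. faecalis and 0.456 to 1.38 with S. aureus (log2 1.48, adjusted p = 0.0305), a call lost without A. faecalis replicates 2 or 4 or S. aureus replicates 2, 3 or 4. The Cst7 call was lost without replicates 2, 3 or 4 of either bacterial group, and Eomes kept its call without any 1 library. Klrk1, the receptor NKG2D, passed in none of the comparisons, and Gzmb, the granzyme of activated killer cells, passed in none with edgeR and for S. aureus against vehicle with DESeq2 (log2 1.13, adjusted p = 0.0218).

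The genes whose levels ran most like those of Cd4 and Cd3e differed. Over the 12 libraries and 15000 genes with a mean of at least 1 CPM, log2 Cd4 was most alike to Nup214 (Pearson r = 0.93), Rasa3 (0.90), Smim24 (0.90), Cd302 (0.90) and Colq (0.90), a likeness that includes the difference of the A. faecalis libraries from the rest. After the group means were subtracted, r was 0.79 for Nup214, 0.70 for Rasa3 and 0.20 for Colq. Log2 Cd3e was most alike to Rwdd1 (0.95), a predicted gene that is not named, Rab19 (0.85), Phyh (0.85) and Trbc1 (0.84), the receptor's beta constant region. These values are descriptions over libraries that share their depth and tissue makeup. Within the set, Cd3e and Cd3g had an r of 0.76 and Cd3d and Cd3g had an r of 0.15.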

How the data were processed

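Per the submitters' processing notes, the authors used kallisto 0.48.0, FastQC 0.12.1, R 4.1.3, DESeq2 1.34.0 and build GRCm39, with no roles given. As deposited by the authors, the table holds estimated counts per gene made with kallisto and not normalized. Of its values 71.5% were fractional, and all were rounded before testing. The sources used here do not give the use of strand or the summing of transcripts, so reads of overlapping or antisense genes cannot be told apart. The 1 entry without a gene name (0.00909% to 0.0151% of a library) was left out. Replicates within a group differed by 28.0 to 460 chi-square units per degree of freedom (18 pairs), so none was a copy.

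Groups follow the treatment label. A single edgeR 4.0.16 model (R 4.3.3) held all 12 libraries: TMM scaling, filterByExpr (minimum count 10, minimum total 15), robust quasi-likelihood test, two-sided, Benjamini-Hochberg adjustment over 18218 genes, call under 0.05. The fit was tested on simulated data. Alternatives used limma 3.58.1 and DESeq2 1.42.0, and ratios (pseudocount 0.5) used exact permutation in scipy 1.17.1. Every gene of the set is named, and from each of 13 lists (213 of 216 symbols found; Trdc not analysed here) called genes, up to 5 per comparison, with fixed examples; Tcrg-V5, Il2, Krt25, Krt27 and Krt71 were added after their values were seen. A few genes of the lists are counted but not reported here by name. The genes, lists and tests were chosen with earlier results of these data known. Per-kilobase levels used the longest coding transcript of GENCODE M21. List medians and counts are descriptions.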

Additional observations from a re-analysis of the deposited data

Results flagged for a closer look

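In 30 groups of 4 libraries (10 genes in 3 groups), the highest or lowest value was set against the others of its group; chance alone singles out about 1 in 20. Cd4 in S. aureus replicate 1 stood far above the rest of its group, at 8.83 CPM against 5.72 to 6.17 in the other 3. Foxp3 in A. faecalis replicate 1 stood far below, at 1.27 CPM against 1.90 to 1.95.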

How the results depend on the processing

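No called result changed direction under any alternative, while differences near 0 that were not called did (Cd3g, A. faecalis against S. aureus: 0.02, and −0.08 with limma-voom or the replicate block). For the 10 genes, 619 of the single-gene results kept their side of the threshold, 3 passed where edgeR had not (Cd4 for A. faecalis against vehicle and Gata3 for S. aureus against vehicle in DESeq2, and Gata3 without S. aureus replicate 1) and 2 were lost (Il2ra for S. aureus against vehicle, in a fit of those groups alone and without S. aureus replicate 3). Genes of the set called were 0, 1 and 2 (A. faecalis against vehicle, S. aureus against vehicle, A. faecalis against S. aureus), 1, 2 and 2 with DESeq2, and 0 for S. aureus against vehicle in a fit of those groups alone. Leaving out 1 library gave 0 to 0, 0 to 2 and 2 to 2.

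Over all genes, calls were 2, 1246 and 2310; 120, 2876 and 3474 with DESeq2; 2859 for S. aureus against vehicle and 3650 for A. faecalis against S. aureus at a threshold of 0.1; and 350 for S. aureus against vehicle and 3459 for A. faecalis against S. aureus, each with those groups alone. Leaving out 1 library gave 2 to 10, 260 to 1750 and 1313 to 3457; the lowest of the last pair came without S. aureus replicate 3. With upper-quartile scaling the split of higher to lower calls was 619 to 679 for S. aureus against vehicle, against 705 to 541. It was 1124 to 1211 for A. faecalis against S. aureus, against 922 to 1388. The causes of these shifts were not tested.

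The log2 ratio of Cd4 to Cd3e (0.92, −0.24 and 1.16) passed against the sum of Cd3d, Cd3e and Cd3g, at 0.95 for A. faecalis against vehicle and 1.17 for A. faecalis against S. aureus. Against Cd3g alone it did not pass, at 1.05 and 1.12 (adjusted p = 0.0857 in both, exact permutation test). For the ratio to Cd3e, leaving out 1 library gave 0.74 to 1.16, −0.41 to −0.15 and 0.98 to 1.40. The main fit did not pair samples by replicate number. Same-numbered libraries correlated by 0.07 to 0.18, −0.21 to 0.08 and −0.14 to 0.02. Differently numbered libraries correlated by −0.21 to 0.24, −0.27 to 0.30 and −0.10 to 0.13, with a higher maximum in each comparison. With the replicate number as a block, calls over all genes were 2, 1038 and 2120, those of the set stayed 0, 1 and 2, and the ratio had adjusted p of 0.188, 0.25 and 0.188, in a test that cannot pass with 4 pairs. The spread between 4 mice, and counts as low as 21.7 for Tbx21, limit what could be detected.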
